A study of Mus musculus with 79 samples.

Results

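The 9 genes that stand for the making and the identity of skeletal muscle were followed through the day in mouse muscle lacking the clock repressor PER2 or the nuclear receptor RORα. They were chosen by name: the actin genes Actc1 and Acta1, the myogenic factors Myod1, Myog and Myf6, the satellite cell factor Pax7, and the MEF2 factors Mef2a, Mef2c and Mef2d. All 9 members were found among the 12952 genes of the PER2 tables and among the 14253 genes of the RORA tables. Muscle-specific knockout mice (MKO) were compared with control mice (CTRL, genotype WT in the labels) at zeitgeber time (ZT, hours after lights on) 0, 4, 8, 12, 16 and 20 h. The PER2 set had 24 PER2 MKO and 19 PER2 CTRL libraries and the RORA set 18 RORA MKO and 18 RORA CTRL libraries, 79 in all, with 3 or 4 mice per genotype and ZT. The labels give the tissue only as muscle, and the sources used here give no driver of the deletion, age or strain.

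In fetal muscle Actc1, the cardiac α-actin gene, is the main sarcomeric actin, and its place is taken after birth by Acta1, the skeletal α-actin gene. Pax7 keeps satellite cells, the stem cells that lie on the fibre. Myod1 commits their daughters to muscle, Myog drives their differentiation, and Myf6 (also called MRF4) is the myogenic factor that mature fibres express most. MEF2 proteins bind beside the myogenic factors and switch on contractile and metabolic genes. Re-expression of Actc1, Myog and Myod1 is a known feature of regenerating and denervated muscle.

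The actin promoters are shown because Actc1 and Acta1 are the pair whose fold changes had the same sign at every ZT within a set and opposite signs between the sets. Sequences are from RefSeq on GRCm38.p6, and 7 of 9 members had a window of 250 bases before to 50 bases after the annotated start. Both actin stretches below run over the 250 bases before the start, 5′ to 3′, with the CArG box, the element bound by serum response factor, in capitals.
Actc1 (chr2:114052876-114053125, minus strand): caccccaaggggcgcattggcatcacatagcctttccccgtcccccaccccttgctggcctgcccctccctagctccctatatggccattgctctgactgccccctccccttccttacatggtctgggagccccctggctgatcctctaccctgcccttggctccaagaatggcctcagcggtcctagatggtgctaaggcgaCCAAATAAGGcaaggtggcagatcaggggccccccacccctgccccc
Acta1 (chr8:123894776-123895025, minus strand): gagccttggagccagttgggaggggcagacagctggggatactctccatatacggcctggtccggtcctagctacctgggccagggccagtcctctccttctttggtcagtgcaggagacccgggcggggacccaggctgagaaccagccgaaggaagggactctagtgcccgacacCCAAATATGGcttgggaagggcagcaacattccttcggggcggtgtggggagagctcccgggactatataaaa
The CArG box lay 47 bases before the annotated start in Actc1 and 73 bases before it in Acta1, and in no other member's window. Of all 32851 promoter windows 1.63% held 1 on either strand. A MEF2 site was found in 1 member, Mef2a, 2 bases before its start and shown in capitals within the 60 bases before and 20 after it, against 3.19% of all windows.
Mef2a (chr7:67372839-67372918, minus strand): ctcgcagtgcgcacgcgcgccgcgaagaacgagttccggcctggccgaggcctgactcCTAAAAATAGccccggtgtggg
The E-box CACGTG, read by clock activators and held by 7.15% of windows, was in no member's window. The hexamer AGGTCA, read by ROR receptors and held by 16.3% of windows, was found in Mef2c only, in 2 of its 3 windows. The general E-box CANNTG, read by myogenic factors, stood in 72.3% of windows and in those of Actc1, Acta1, Myog and Mef2c. These matches were found by letters alone on both strands, the stretches were chosen after the matches were seen, and a match is a description and not a bound site.

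Acta1 was by far the highest member. Its mean level was 16028 CPM per kb of transcript over the PER2 libraries and 180586 normalized counts per kb over the RORA libraries. Per kb, Actc1 came next, at 178 CPM in the PER2 set and 2708 normalized counts in the RORA set. The order then ran Mef2c, Myf6, Mef2d, Mef2a, Myod1, Myog and Pax7 in both sets, down to 0.557 CPM per kb for Pax7 in the PER2 set and 6.29 normalized counts per kb in the RORA set. The deposited means carry no spread over libraries, so whether neighbours in this order, such as Mef2d and Mef2a at 35.8 and 25.7 CPM per kb in the PER2 set, differ beyond their spread could not be tested. Not scaled by length, Actc1 had 1.13% of the Acta1 level in the PER2 set and 1.53% in the RORA set. The sets were normalized separately, so only such within-set shares can be set side by side. In the annotated transcripts Actc1 and Acta1 shared no stretch of 50 bases (0 of 1424 windows), with a longest common run of 29 bases, and their open reading frames differed at 157 of 1134 bases. Reads of that length or longer that match exactly can thus be told apart between the 2 transcripts, whereas Acta1 shared 28 windows with Actb, the cytoplasmic β-actin gene.

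**Figure D1:**
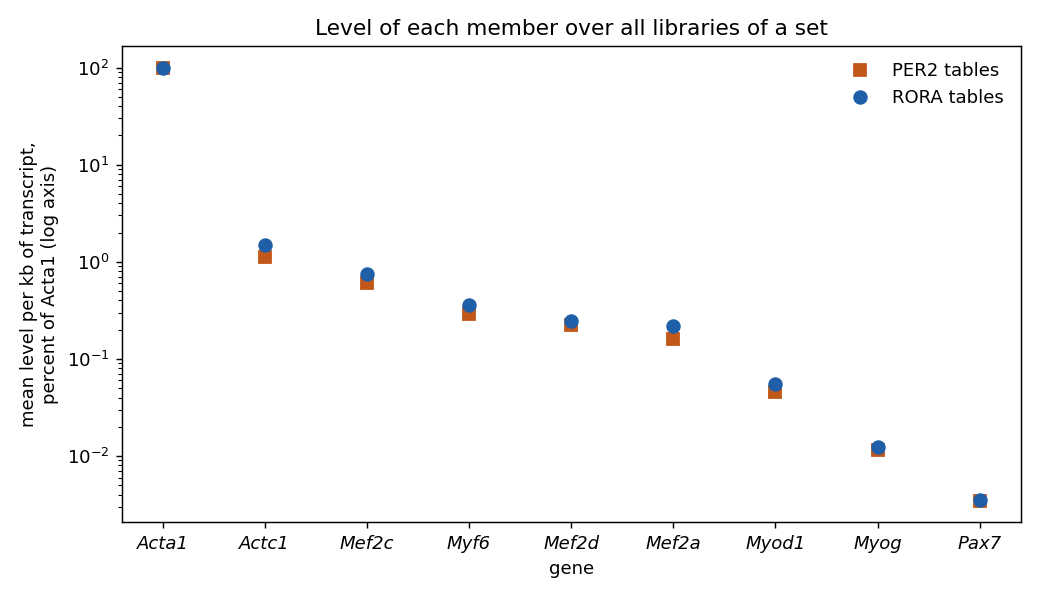
Mean level of each member per kb of annotated transcript as a percent of Acta1 (log axis), over all libraries of the PER2 set (squares) and the RORA set (circles). The order of the 9 genes is the same in both sets, from Acta1 at the top to Pax7 at the bottom.

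Fold changes are the authors' deposited log2 values. RORA values are MKO over CTRL. The genotype on top in the PER2 tables is stated nowhere in the headers or labels, so PER2 values are called positive or negative as deposited and nothing is said of higher or lower in PER2 MKO. A gene was called at a ZT when the deposited adjusted p was under 0.05. Means are given ± SD over 6 ZT (n = 6 ZT comparisons, each from its own mice), so this SD mixes variation through the day with sampling error. As a check of the labels, Per2 had a mean of 0.37 ± 0.29 in the PER2 tables, positive at 5 of 6 ZT and called at 1, and Rora fell by 1.78 ± 0.15 in RORA MKO and was called at 6 of 6. In the PER2 tables at ZT4 and ZT12, fold changes of all genes followed transcript length (Spearman's rho 0.54 and 0.46) and GC content (rho -0.38 and -0.47), and a smooth trend on both took up 31.0% and 28.1% of their variance, against at most 4.25% at the other ZT. In the RORA set such a trend took up 8.17% of the variance at ZT20 (rho 0.38 with GC content) and at most 3.06% at the other ZT. RORA values of the members are given without that trend removed. Of 8 cardiomyocyte markers only Myh6 was listed in either set, at 47.5 CPM in the PER2 set and 28.9 normalized counts in the RORA set, and its mean passed the test in neither.

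Actc1 changed far more than any other member, and with opposite deposited signs in the sets. In the authors' deposited PER2 tables its log2 fold changes were -1.26, -2.23, -2.18, -2.40, -1.88 and -1.99 from ZT0 to ZT20, with derived errors of 0.42 to 0.48. All 6 values were negative, the smallest at ZT0, and 5 were called, the ZT0 value having an adjusted p of 0.128. The mean was -1.99 ± 0.40, a ratio of 0.252, where Stouffer's sum gave an adjusted p of 5.86e-24. Only 20 of the 12952 PER2 genes (0.154%) had a mean of greater size. In the authors' deposited RORA tables the values were 0.54, 0.76, 0.99, 0.60, 1.27 and 1.46 from ZT0 to ZT20, with deposited errors of 0.19 to 0.26. All 6 were called higher in RORA MKO, the largest at ZT16 and ZT20. Actc1 thus rose by 0.94 ± 0.37 in RORA MKO, 1.91-fold, with an adjusted p of 3.04e-26 for the inverse-variance mean, and 199 genes (1.40%) had a mean of greater size. A change of the effect with ZT did not pass Cochran's Q in the PER2 set (adjusted p 0.900) or the RORA set (adjusted p 0.0949).

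The PER2 effect on Actc1 as deposited and the RORA effect differed by -2.97 ± 0.21 (SE), PER2 minus RORA, with an adjusted p of 1.99e-44. With the PER2 sign reversed the difference was 0.98, with an adjusted p of 3.82e-05. RORA fold changes had signs of shrinkage toward 0 (the ratio of fold change to error was 0.779 times the z of its p in the median), so sizes cannot be compared closely between the sets. Removing the trend on length and GC left Actc1 at -2.05 at ZT4 and -2.28 at ZT12 in the PER2 set.

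Acta1 moved little, with the same signs as Actc1. In the authors' deposited PER2 tables its values were -0.00, -0.37, -0.05, -0.36, -0.09 and -0.19 from ZT0 to ZT20, and ZT4 alone was called. Its 2 lowest values stood at ZT4 and ZT12, where fold changes followed length and GC, and with that trend removed they were -0.10 and -0.16. The mean of -0.18 ± 0.16 had an adjusted p of 0.00152, but 0.0725 with the trend removed and 0.394 without ZT4 and ZT12. Acta1 stood, in the authors' deposited RORA tables, at 0.11, 0.07, 0.04, 0.12, 0.08 and 0.13 from ZT0 to ZT20, called at ZT0, ZT12 and ZT20. It rose by 0.09 ± 0.03 in RORA MKO (adjusted p 2.00e-05), a ratio of 1.06. The 2 effects on Acta1 differed by -0.27 ± 0.05 (SE; adjusted p 9.75e-07), and by 0.09 with the PER2 sign reversed (adjusted p 0.242). Among the other actins, Actb had a mean of -0.17 ± 0.12 in the PER2 set (adjusted p 0.00273, but 0.310 without ZT4 and ZT12), and none of the 3 listed in the RORA set passed the test.

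**Figure D2:**
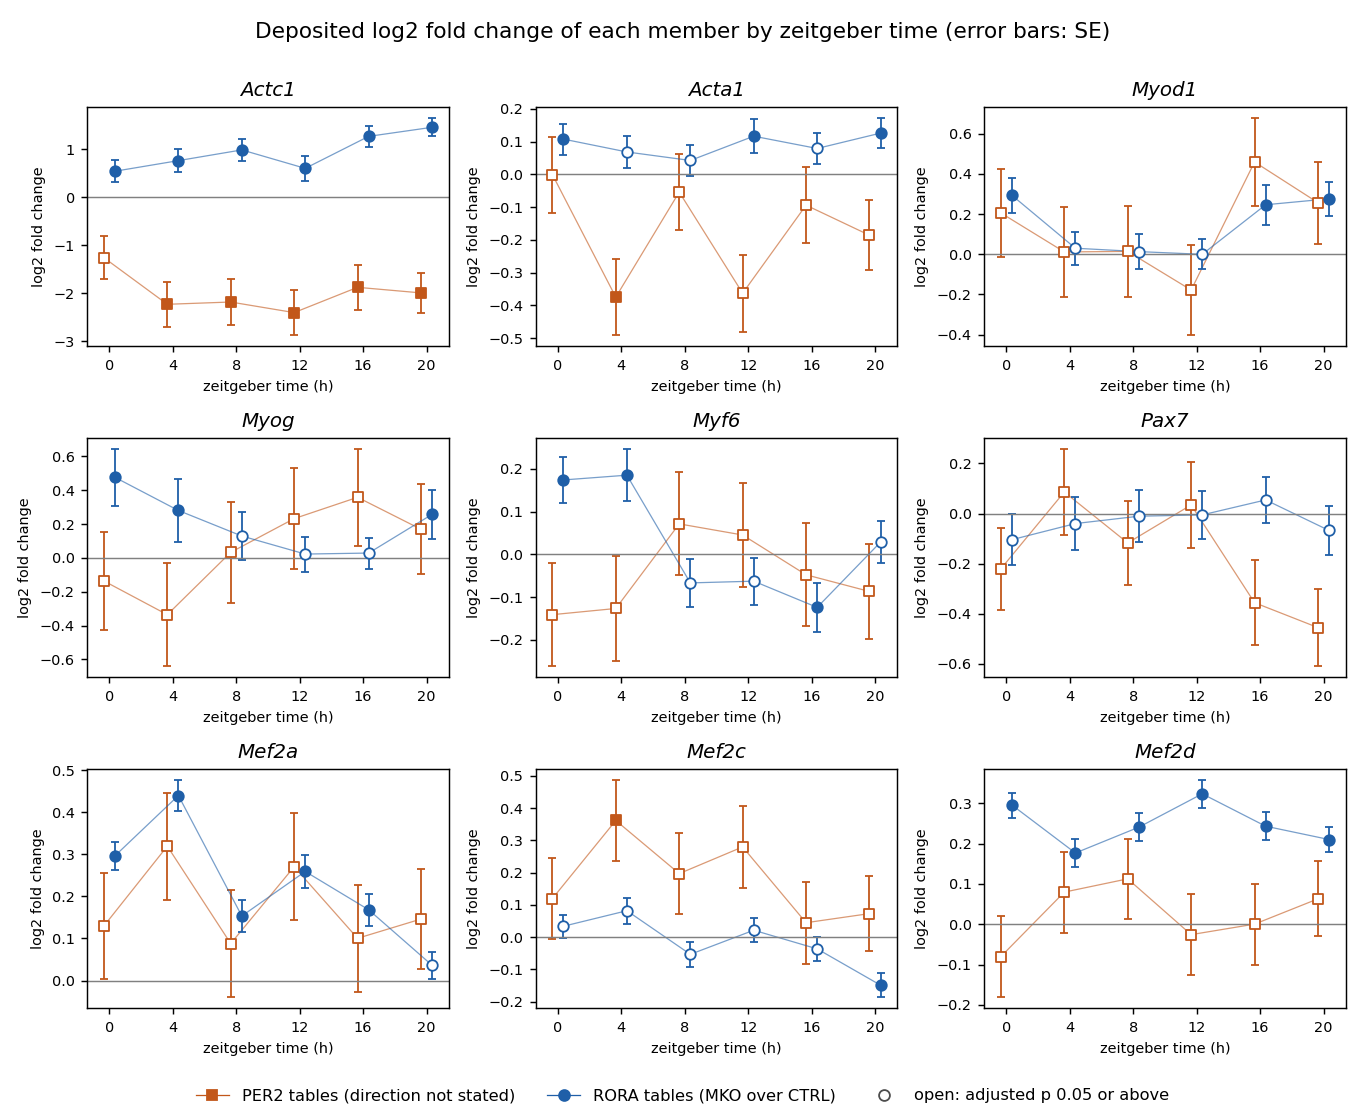
Deposited log2 fold change of each member (vertical axis, scaled separately per panel) by zeitgeber time (horizontal axis, h) in the PER2 tables (squares, direction not stated) and the RORA tables (circles, MKO over CTRL), with derived or deposited standard errors. Filled symbols mark adjusted p under 0.05; Actc1 lies between -2.40 and -1.26 in the PER2 tables and between 0.54 and 1.46 in the RORA tables.

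Among the myogenic factors, Myod1 and Myog rose modestly in RORA MKO. Myod1 had, in the authors' deposited PER2 tables, values of 0.21, 0.01, 0.01, -0.18, 0.46 and 0.26 from ZT0 to ZT20, none called. Its values in the authors' deposited RORA tables were 0.29, 0.03, 0.01, -0.00, 0.25 and 0.28. The RORA values were high at ZT0, ZT16 and ZT20, which were called, and near 0 at ZT4, ZT8 and ZT12. Myod1 averaged 0.13 ± 0.22 in the PER2 set (adjusted p 0.310) and rose by 0.14 ± 0.14 in RORA MKO (adjusted p 0.000791). For that rise the adjusted p was 0.0653 by limma on the 6 values and 1.94e-06 by Stouffer's sum. The change of the Myod1 effect with ZT did not pass Cochran's Q in the RORA set (adjusted p 0.103), though it did when Q was taken on signed z values. The 2 effects on Myod1 differed by 0.01 ± 0.10 (SE; adjusted p 0.954), and by -0.27 with the PER2 sign reversed (adjusted p 0.0330).

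Myog was the least abundant of the myogenic factors. Its values in the authors' deposited PER2 tables were -0.14, -0.34, 0.03, 0.23, 0.36 and 0.17 from ZT0 to ZT20, each with a derived error of 0.27 to 0.30, and none was called. They were, in the authors' deposited RORA tables, 0.48, 0.28, 0.13, 0.02, 0.03 and 0.26, called at ZT0, ZT4 and ZT20. The RORA values were above 0 at all 6 ZT and lowest at ZT12 and ZT16. Myog averaged 0.05 ± 0.26 in the PER2 set (adjusted p 0.776) and rose by 0.20 ± 0.17 in RORA MKO. The inverse-variance mean in RORA MKO, on which the test was run, was 0.13 ± 0.05 (SE) and was called (adjusted p 0.0298). By the inverse-variance mean that call rested on single time points: without ZT0, ZT4 or ZT20 the adjusted p was 0.177, 0.0706 or 0.107. By Stouffer's sum over all 6 ZT it was 2.77e-06, and that sum was not run in the RORA set with a ZT left out. Myog had a mean normalized count of 33.3 in the RORA set.

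Myf6 changed sign through the day in RORA MKO. Myf6 ran, in the authors' deposited PER2 tables, between -0.14 at ZT0 and 0.07 at ZT8, with no call, and averaged -0.05 ± 0.09 (adjusted p 0.531). In the authors' deposited RORA tables the Myf6 values were 0.17, 0.19, -0.07, -0.06, -0.12 and 0.03 from ZT0 to ZT20. It was called higher in RORA MKO at ZT0 and ZT4 and lower at ZT16, and the change with ZT passed Cochran's Q (adjusted p 0.00167). Its mean of 0.02 ± 0.13 did not pass (adjusted p 0.546).

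Pax7 was not called at any ZT in either set. Its PER2 values in the authors' deposited tables were -0.22, 0.09, -0.12, 0.03, -0.36 and -0.46 from ZT0 to ZT20, with the lowest at ZT16 and ZT20. The mean of -0.17 ± 0.21 passed the test narrowly (adjusted p 0.0439) and missed it without ZT0, ZT8, ZT16 or ZT20 (adjusted p 0.0914, 0.0557, 0.162 and 0.298). Without ZT4 and ZT12 together it was -0.29 and passed (adjusted p 0.00673 by Stouffer's sum). Pax7 lay, in the authors' deposited RORA tables, between -0.10 and 0.05, with a mean of -0.03 ± 0.05 (adjusted p 0.721). The 2 effects on Pax7 differed by -0.16 ± 0.08 (SE; adjusted p 0.102, or 0.0446 without ZT4), and by 0.21 with the PER2 sign reversed (adjusted p 0.0436). As deposited, and without ZT4 and ZT12, they differed by -0.26 (adjusted p 0.0228). Of 10 satellite cell markers, 2 had a negative mean past the test in the PER2 set, where 10.6% of all genes did. They were Pax7 and the integrin subunit gene Itga7, whose adjusted p was 0.175 without ZT4 and ZT12. In RORA MKO 2 of 10 fell, Itga7 and Sdc4, a heparan sulfate proteoglycan gene, where 19.3% of all genes fell. None had a positive mean past the test in the PER2 set or was higher in RORA MKO.

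Of the MEF2 genes, Mef2d and Mef2a rose in RORA MKO. Mef2d lay, in the authors' deposited PER2 tables, between -0.08 at ZT0 and 0.11 at ZT8, with no call and a mean of 0.03 ± 0.07 (adjusted p 0.709). It had, in the authors' deposited RORA tables, 0.30, 0.18, 0.24, 0.32, 0.24 and 0.21 from ZT0 to ZT20, called at every ZT. The RORA range was narrow, and Mef2d rose by 0.25 ± 0.05 in RORA MKO (adjusted p 3.36e-73), a ratio of 1.19. The effects differed by -0.22 ± 0.04 (SE; adjusted p 1.39e-06), and by -0.27 with the PER2 sign reversed (adjusted p 3.78e-09).

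Mef2a rose in RORA MKO by an amount that changed with the time of day. PER2 values in the authors' deposited tables were 0.13, 0.32, 0.09, 0.27, 0.10 and 0.15, all positive and none called. The PER2 mean of 0.18 ± 0.10 had an adjusted p of 0.00515, but 0.0565 without ZT4 and 0.147 with the length and GC trend removed. In the authors' deposited RORA tables the values were 0.30, 0.44, 0.15, 0.26, 0.17 and 0.04 from ZT0 to ZT20. The RORA value was highest at ZT4, lowest at ZT20, and called at every ZT but ZT20. Mef2a rose by 0.23 ± 0.14 in RORA MKO (adjusted p 1.32e-48), and the change with ZT had an adjusted p of 3.58e-12 by Cochran's Q. Without ZT20 the Q test gave 1.14e-05. RORA fold changes followed GC content most at ZT20 (rho 0.38), and the Mef2a transcript has 42.0% GC. The part of that trend in the change with ZT was not tested. As deposited the 2 effects on Mef2a differed by -0.04 ± 0.05 (SE; adjusted p 0.549). With the PER2 sign reversed they differed by -0.39 (adjusted p 6.23e-12).

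Mef2c, the most abundant MEF2 gene, had no mean change in RORA MKO past the test. The PER2 values in the authors' deposited tables were 0.12, 0.36, 0.20, 0.28, 0.04 and 0.07, all positive, with ZT4 alone called. The PER2 mean of 0.18 ± 0.12 had an adjusted p of 0.00415, but 0.0663 without ZT4 and 0.194 with the length and GC trend removed. RORA values in the authors' deposited tables were 0.03, 0.08, -0.05, 0.02, -0.04 and -0.15 from ZT0 to ZT20, and ZT20 alone was called, lower in RORA MKO. The RORA mean of -0.02 ± 0.08 did not pass (adjusted p 0.432). The change with ZT had an adjusted p of 0.00541 by Cochran's Q, and 0.411 without ZT20. At ZT20 RORA fold changes followed GC content most (rho 0.38), and the Mef2c transcript has 40.8% GC. The part of that trend was not tested. The 2 effects on Mef2c differed by 0.19 ± 0.05 (SE; adjusted p 0.00109), and by 0.16 without ZT4 and ZT12 (adjusted p 0.0520). With the PER2 sign reversed the difference turned to -0.16 (adjusted p 0.0188).

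**Figure D3:**
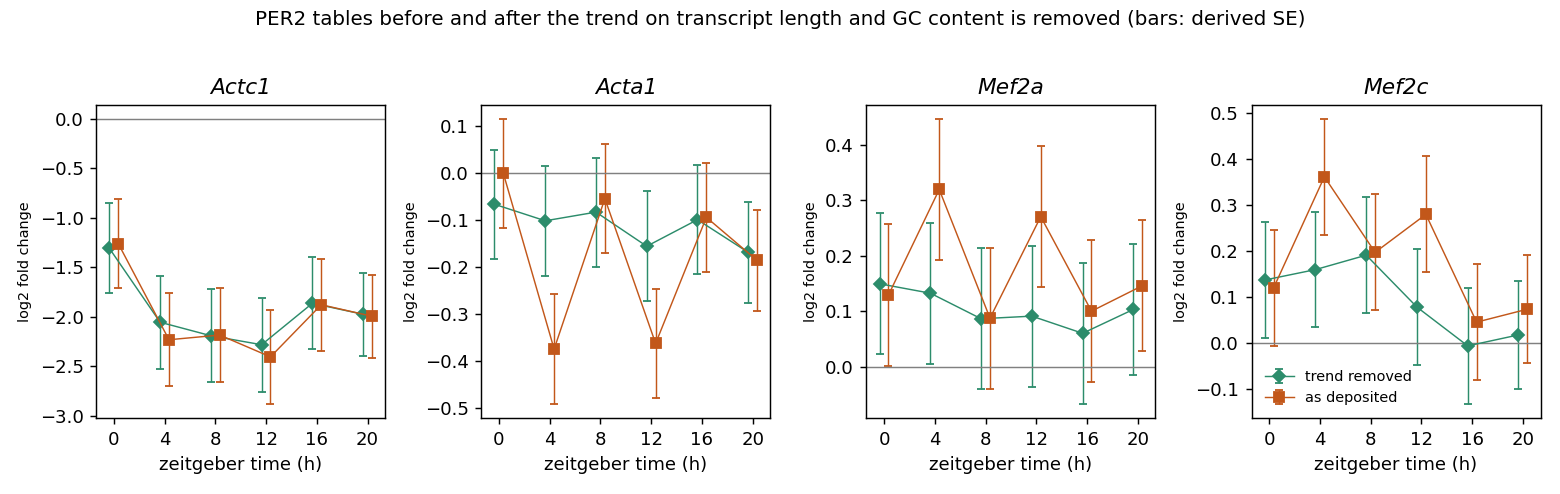
PER2 log2 fold changes of 4 members (vertical axes, scaled separately) by zeitgeber time (h) with the trend on transcript length and GC content removed (diamonds) and as deposited (squares), with derived standard errors. Actc1 moves little, whereas the ZT4 and ZT12 values of Acta1, Mef2a and Mef2c move toward 0, for Acta1 at ZT4 to -0.10 from -0.37 as deposited.

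As a group, the members were called more often in the RORA set than in the PER2 set, as were all genes. From ZT0 to ZT20, the PER2 calls numbered 0, 3, 1, 1, 1 and 1 of 9 members, where 2.70%, 12.2%, 1.78%, 3.34%, 0.811% and 1.52% of all genes were. The mean over ZT passed for 5 of 9 in the PER2 set, 2 positive and 3 negative, against 21.6% of all genes (10.9% positive and 10.6% negative). The RORA calls numbered 7, 5, 3, 4, 5 and 6 of 9 members, where 28.1%, 29.0%, 27.8%, 22.1%, 20.7% and 32.2% of all genes were. The mean over ZT passed for 6 of 9 in the RORA set, all higher in RORA MKO, against 38.2% of all genes (18.9% higher and 19.3% lower). The median member effect was 0.03 in the PER2 set and 0.14 in the RORA set, where the medians of all genes were -0.02 and 0.00. The effect changed with ZT for none of 9 members in the PER2 set (0.0463% of all genes) and for 3 of 9 in the RORA set (11.0%). The effects differed between the sets for 4 of 9 members with the PER2 sign as deposited (40.0% of the 11425 genes in both sets), and for 6 of 9 with it reversed (19.2%), where Acta1 no longer passed and Myod1, Pax7 and Mef2a did. The members were chosen by name, and these counts are a description.

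**Figure D4:**
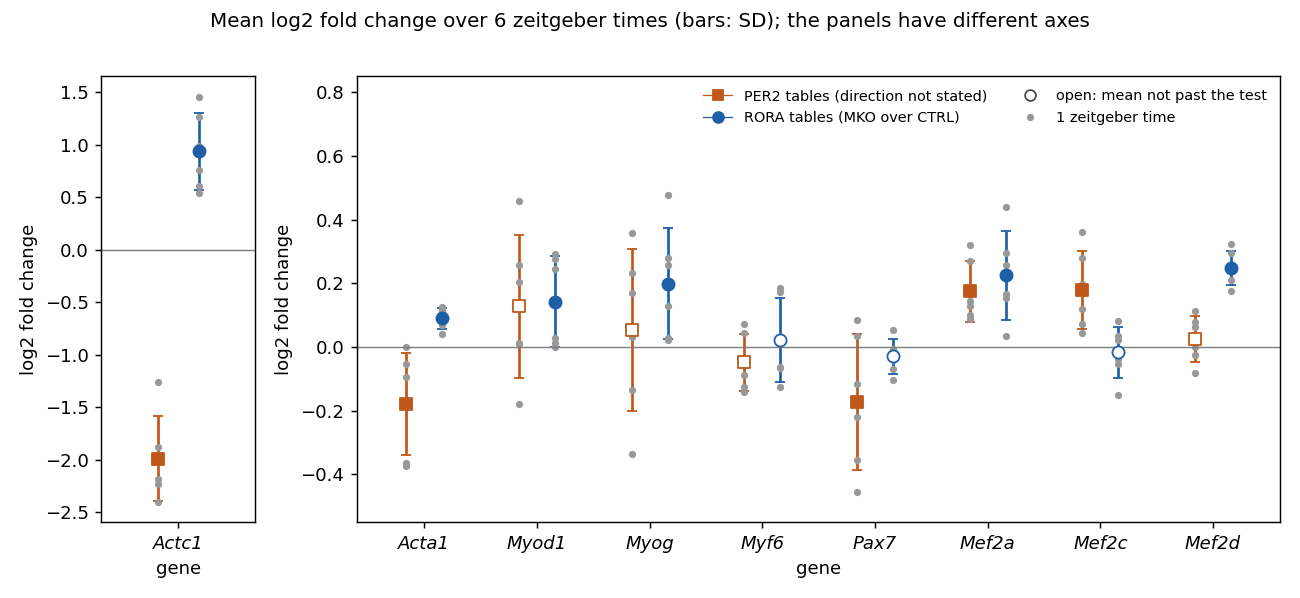
Mean log2 fold change (vertical axis) of each member over 6 zeitgeber times ± SD in the PER2 tables (squares) and the RORA tables (circles), with the 6 values as grey points; Actc1 has an axis of its own. Filled symbols mark means past the test: 5 in the PER2 tables and 6 in the RORA tables.

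Some markers of other cell types also passed the test. Of all genes, 10.9% had a positive and 10.6% a negative mean past the test in the PER2 set. In RORA MKO 18.9% of all genes rose and 19.3% fell. In the PER2 set, 5 of 5 measured red blood cell markers had a negative mean past the test. Their list medians were -1.35 at ZT4 and -1.01 at ZT12, the ZT where Acta1 was lowest and where fold changes followed length and GC. Without those ZT none of the 5 passed. In RORA MKO 1 of 5 was higher and none lower. In the PER2 set 0 of 8 endothelial markers had a positive mean past the test and 2 a negative one (1 without ZT4 and ZT12). In the RORA set, all 8 endothelial markers (summed level 3635 normalized counts) were higher in RORA MKO, by 0.06 to 0.19. In the same set 4 of 8 smooth muscle and pericyte markers were higher, Lmod1 most of them at 0.40 ± 0.34. Lmod1 is named here after its values were seen. In the PER2 set 1 of 9 smooth muscle and pericyte markers had a negative mean past the test (2 without ZT4 and ZT12), and none a positive one. Of 8 fibroblast markers, none passed in the PER2 set, and in RORA MKO none was higher and 2 fell, Dcn by 0.13 ± 0.07 and Pdgfra by 0.08 ± 0.08. No leukocyte, Schwann cell or adipocyte marker had a mean over ZT past the test in either direction. List medians at single ZT swung widely. In the RORA set they ran from -0.30 at ZT4 to 0.74 at ZT20 for Schwann cell and from -0.75 at ZT0 to 0.44 at ZT20 for adipocyte markers. In the PER2 set they ran from -0.39 at ZT20 to 0.28 at ZT16 and from -0.74 at ZT12 to 0.40 at ZT8. All 12 skeletal fibre markers were listed in both sets, with 0 positive and 1 negative (Acta1) in the PER2 set and 3 higher and 3 lower in RORA MKO. The files hold no level per genotype, the part of these cells in the members' changes was not tested, and in whole tissue fewer cells of a type and less RNA per cell cannot be told apart.

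The genes whose 12 fold changes were nearest to those of Actc1 were Ppp1r1a, a protein phosphatase inhibitor gene, Car3, the muscle carbonic anhydrase gene, and Mybph, a myosin-binding protein gene. Their root mean square differences from Actc1 were 0.80, 0.86 and 0.91, where Actc1 itself had a root mean square of 1.59. Ppp1r1a averaged -1.10 in the PER2 set and 1.25 in the RORA set, and Car3 -1.03 and 0.84. These were the nearest of 8650 genes and are a description, since such a search always returns some. Bcam, Tsfm and Wdr45 lay nearest to Acta1, with differences of 0.05 to 0.06. Wipi1, Spata2 and Rnf10 lay nearest to Mef2d (0.05 to 0.06), Slk, Pik3ca and Ulk1 to Mef2a (0.08 to 0.10), Enpp5, Tprkb and Ipp to Myf6 (all 0.08), Zfp703, Klhdc3 and Cdipt to Myod1 (0.13 to 0.14), and Ttc7, Adamts9 and Tom1l1 to Myog (0.15 to 0.16).

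Among genes that act with the members, those of the fetal and neonatal sarcomere list were changed in part. In the PER2 set 1 of 9 had a mean past the test, where 21.6% of all genes did. It was Mybph, which averaged -0.90 ± 0.21 (adjusted p 2.19e-12). In the RORA set 3 rose and 1 fell in RORA MKO: Mybph rose by 0.73 ± 0.47, the α-actinin gene Actn2, which adult fibres also express, by 0.47 ± 0.28 and the perinatal myosin gene Myh8 by 0.10 ± 0.05, while the cardiac troponin T gene Tnnt2 fell by 0.38 ± 0.19. Of all genes 18.9% rose and 19.3% fell in RORA MKO. Myh8 is named outside the rule for naming genes, after its values were seen. The embryonic myosin gene Myh3 averaged 0.06 ± 0.21 in the PER2 set and -0.19 ± 0.21 in the RORA set, and passed in neither.

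Genes of the acetylcholine receptor and of denervation passed the test in the PER2 set for 9 of 11, with 3 positive and 6 negative, and for the same numbers without ZT4 and ZT12. The 9 were not all the same genes. By Stouffer's sum without those ZT, Chrnb1 was lost (adjusted p 0.0595) and Runx1 came in (0.0231, against 0.0521 over all 6 ZT). Runx1 is named outside the rule for naming genes. Of all genes 21.6% passed, 10.9% positive and 10.6% negative, and 1379 of 12952 passed without ZT4 and ZT12. Musk, the receptor kinase that builds the synapse, averaged 1.34 ± 0.18 in the PER2 set and fell by 0.84 ± 0.15 in RORA MKO, called at 6 of 6 ZT in both. Gadd45a, a stress gene induced by denervation, averaged -0.40 ± 0.21 in the PER2 set and rose by 0.48 ± 0.19 in RORA MKO. The receptor subunit gene Chrne averaged -0.26 ± 0.08 in the PER2 set, and Chrnb1 fell by 0.24 ± 0.06 in RORA MKO. In the RORA set 3 of 11 rose and 3 fell, where 18.9% of all genes rose and 19.3% fell. The list thus had no common direction there, with a median of 0.04.

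Of the genes controlled by MEF2 and myogenic factors, 3 of 14 were positive and 1 negative in the PER2 set (2 and 0 without ZT4 and ZT12), where 10.9% of all genes were positive and 10.6% negative. In RORA MKO 9 of 14 rose and 2 fell, where 18.9% of all genes rose and 19.3% fell. The median was 0.00 in the PER2 set and 0.07 in the RORA set. In RORA MKO the M-band gene Myom2 rose by 0.21 ± 0.04 and the muscle glycolytic gene Pgam2 by 0.20 ± 0.07, while the sarcalumenin gene Srl fell by 0.15 ± 0.05. Srl averaged 0.14 ± 0.05 in the PER2 set (adjusted p 0.000161), and Ppargc1a, the PGC-1α coactivator gene, 0.22 ± 0.24 (adjusted p 0.00592, but 0.0682 without ZT4 and ZT12).

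Partners of the members changed in both directions in RORA MKO and had positive means past the test in the PER2 set. Among 14 partners, 5 were positive and 0 negative in the PER2 set, led by Tead4, a TEAD transcription factor gene, at 0.62 ± 0.32 and called at 4 ZT. Without ZT4 and ZT12 the count of positive partners was 3, not all of them among those 5. By Stouffer's sum they were Tead4 (adjusted p 2.61e-05), Smarcd3 (0.0180) and Srf (0.0292), and Srf had not passed over all 6 ZT (0.282). Smarcd3 and Srf are named outside the rule for naming genes. In RORA MKO 6 partners rose and 4 fell, Mrtfb, a coactivator of serum response factor, rising by 0.26 ± 0.13 and Prdm2 falling by 0.13 ± 0.05. Among the repressors, 1 of 13 passed in the PER2 set, the E-box repressor gene Zeb1 at 0.16 ± 0.15, with an adjusted p of 0.465 without ZT4 and ZT12. The share of all genes past the test was 21.6% in the PER2 set and 38.2% in the RORA set. In RORA MKO 3 of 16 rose and 2 fell. The MEF2-binding deacetylase genes Hdac4 and Hdac7 rose by 0.24 ± 0.22 and 0.20 ± 0.06 in RORA MKO, with the Hdac4 effect changing with ZT (adjusted p 8.54e-08), while Hdac9 fell by 0.34 ± 0.21 and Zeb1 by 0.12 ± 0.04. Hdac9 is named outside the rule for naming genes.

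In the satellite cell and commitment list, 2 of 17 were positive and 1 negative in the PER2 set, and 1 of 17 rose and 5 fell in RORA MKO. Of all genes, 10.9% were positive and 10.6% negative in the PER2 set, and 18.9% rose and 19.3% fell in RORA MKO. Sdc4 fell by 0.48 ± 0.16 and Eya4, a homeodomain factor coactivator gene, by 0.22 ± 0.19 in RORA MKO, while Notch3 rose by 0.16 ± 0.09. Eya1 and Eya4 averaged 0.30 ± 0.17 and 0.26 ± 0.15 in the PER2 set, Eya4 with an adjusted p of 0.165 without ZT4 and ZT12. In the list of differentiation, fusion and cell cycle exit, 2 of 12 were positive in the PER2 set, Cdkn1a (the cell cycle inhibitor p21) at 0.27 ± 0.35 and Klhl31 at 0.13 ± 0.10, with adjusted p of 0.0612 and 0.211 without ZT4 and ZT12. In RORA MKO 4 of 12 rose and 3 fell: Cdon, a cell surface receptor that promotes myogenesis, rose by 0.27 ± 0.07, Klhl31 fell by 0.37 ± 0.09, and Myl1, the fast alkali myosin light chain gene, by 0.09 ± 0.10. Both cardiac-enriched genes measured, of 12 listed, missed the test in each set.

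**Figure D5:**
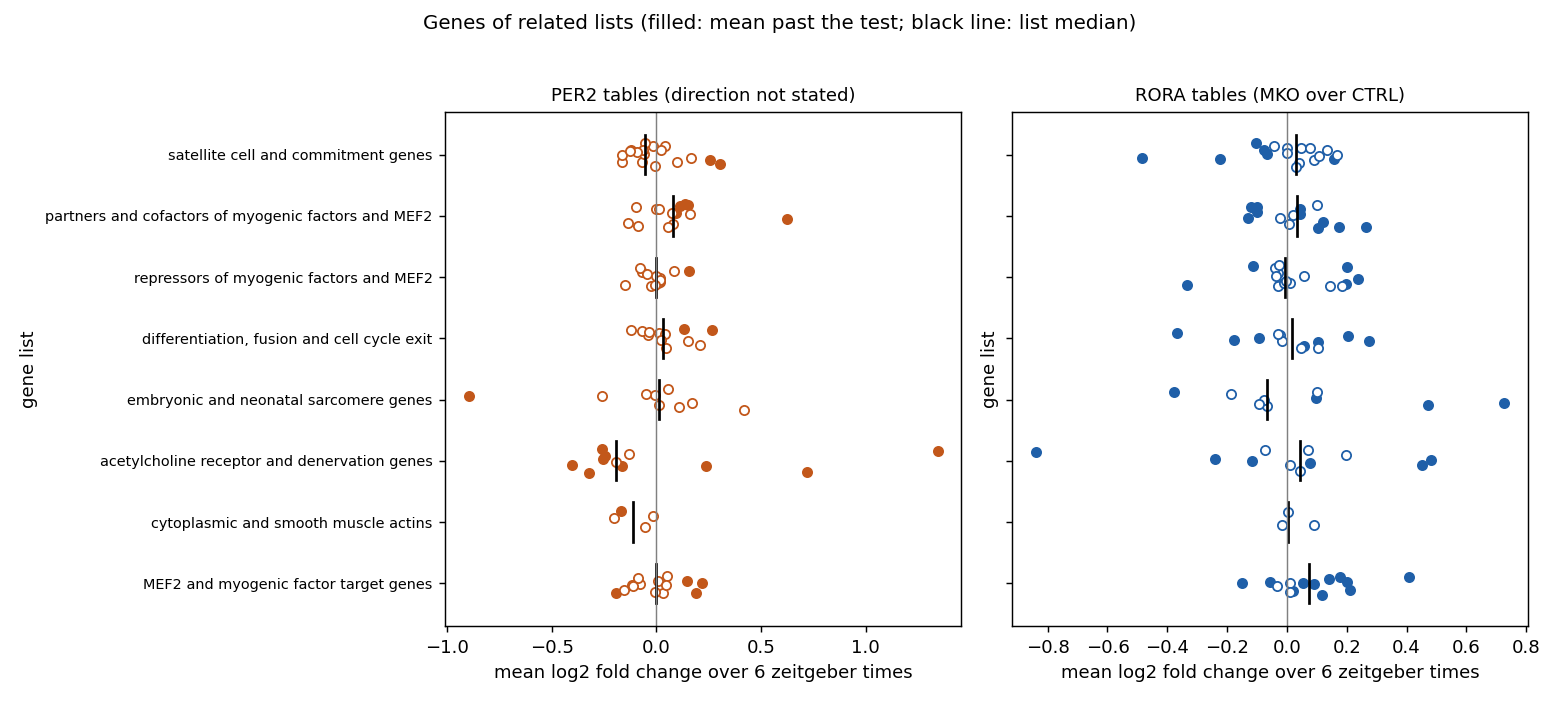
Mean log2 fold change over 6 zeitgeber times (horizontal axis) of each measured gene in 8 lists related to the members (rows), in the PER2 tables (left) and the RORA tables (right), with the list median as a black line. Filled points passed the test; Musk (1.34 in the PER2 set, -0.84 in the RORA set) and Mybph (-0.90 and 0.73) lie farthest out, and the list medians stay between -0.19 and 0.08.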

How the data were processed

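The 12 tables analysed hold the authors' own comparisons, 1 per set and ZT; no values per library were analysed here, so depth and its precision are unknown. Per the labels' protocols, stranded poly-A libraries were made from total RNA. Per the submitters' processing notes, the tools included DESeq2 in R 4.1, STAR, Trimmomatic, MultiQC and bcl2fastq 2.20.0.422, with builds mm9 and GRCm39, without roles. Per the file headers, the RORA tables give a mean normalized count (a signal level), log2 fold change, its error, p-value and adjusted p. Per the file headers, the PER2 tables give log2 fold change, mean log2 CPM, likelihood ratio (a score), p-value and adjusted p. Per the labels, RORA tables were filtered at 10 reads in 3 samples and are knockout over wild type. For PER2 an error was derived by dividing the absolute log2 fold change by the square root of the likelihood ratio.

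RORA means over ZT were tested by inverse-variance mean and PER2 means by Stouffer's sum. Cochran's Q (5 degrees of freedom) tested change with ZT. The PER2 minus RORA difference was tested on inverse-variance means. All p are two-sided, adjusted by Benjamini-Hochberg over all genes, with calls under 0.05; nothing was adjusted over the members alone. Because the tables hold no counts, no count test was run. Lists are described by counts and medians. Members, lists and alternatives were chosen with earlier results of these data known. Named genes are the members, up to 3 genes per list and set with the smallest adjusted p, and the 3 genes nearest in pattern to members called at 3 or more ZT. GENCODE M21 gave lengths, GC content and 893 missing symbols; the length and GC trend was a cubic fit, the limit of 2 on fold change size in it being set after the data were seen. Scripts were tested on simulated data. Tools were Python 3.11.15, pandas 2.3.3, SciPy 1.17.1, matplotlib 3.10.9 and limma 3.58.1.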

Additional observations from a re-analysis of the deposited data

Results flagged for a closer look

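There were 3 members with effects in RORA MKO that differed between zeitgeber times by a test of the difference itself, Cochran's Q adjusted over all genes, which 11.0% of all RORA genes passed. For Mef2a the adjusted p was 3.58e-12, with the RORA MKO over CTRL log2 fold change at 0.44 at ZT4 and 0.04 at ZT20 in the authors' deposited tables. For Myf6 the adjusted p was 0.00167, with 0.19 at ZT4 and -0.12 at ZT16 in the authors' deposited tables. For Mef2c the adjusted p was 0.00541, with 0.08 at ZT4 and -0.15 at ZT20 in the authors' deposited tables, and 0.411 without ZT20. For Mef2a it was 1.14e-05 without ZT20. RORA fold changes followed GC content most at ZT20 (rho 0.38), and the part of that trend in these changes was not tested.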

How the results depend on the processing

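The tables hold no values per library, so depth, outlying libraries and batches were not examined, and RORA sizes may be understated by shrinkage. No paired analysis was possible because the files hold no values per library. The calls of the mean for Actc1 in the PER2 set and for Actc1, Acta1, Mef2a and Mef2d in the RORA set held under every alternative run. The alternatives were not the same: for the mean, the length and GC trend was removed in the PER2 set only. Likewise ZT4 and ZT12 were left out together for the mean in the PER2 set only. Actc1 ranged between -2.14 and -1.91 (PER2) and between 0.83 and 1.01 (RORA) when a ZT was left out. In the RORA set the calls for Myod1 (0.14 by limma on the 6 values) and Myog (0.14 to 0.23 with a ZT left out) were lost under some alternatives. In the PER2 set, the trend on length and GC content removed gave values no longer past the test for Acta1 (-0.11), Pax7 (-0.17), Mef2a (0.10) and Mef2c (0.10). Leaving out ZT4 and ZT12 did so for Acta1 (-0.084), Mef2a (0.12) and Mef2c (0.11), limma for Acta1 (-0.18), Pax7 (-0.17) and Mef2c (0.18), and subtracting the median of all genes for Pax7 (-0.16). With a ZT left out the PER2 means ran from -0.22 to -0.11 for Pax7, 0.15 to 0.19 for Mef2a and 0.14 to 0.21 for Mef2c. Without ZT4 and ZT12 together the PER2 mean of Pax7 was -0.29 and passed (adjusted p 0.00673 by Stouffer's sum). With the PER2 sign reversed, the PER2 minus RORA difference turned to 0.98 for Actc1, 0.088 for Acta1, -0.27 for Myod1, 0.21 for Pax7 and -0.16 for Mef2c, with 2194 genes called against 4567. At an adjusted p under 0.01, PER2 calls at ZT0, ZT4, ZT8, ZT12 and ZT20 were 191, 567, 114, 203 and 127, against 350, 1586, 230, 432 and 197. The PER2 mean was called for 2792 genes, 1092 by limma and 1379 without ZT4 and ZT12. Change with ZT was called for 1565 RORA genes, 2617 on z values and 970 to 1521 with a ZT left out (970 without ZT4), and for 6 PER2 genes, 2 to 12 with a ZT left out (2 without ZT0, 3 without ZT4, 12 without ZT12). The cause of these shifts was not tested.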

Other observations

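Among the 1637 genes whose mean over ZT was called in both sets, which have separate control mice, 1399 (85.5%) had opposite deposited signs in the PER2 and RORA tables. Among the 113 of them with a mean size of at least 0.5 in both, 100 did. No source used here says which genotype the PER2 ratio has on top, and with its sign reversed 238 of the 1637 (14.5%) and 13 of the 113 would be opposite. Actc1 and Acta1 are of this kind as deposited, and Mef2a is not.

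The sets also differed in the deposited level of some sarcomeric and cytoskeletal genes beside the members. Myh8, the perinatal myosin gene, stood at 7.89% of the Acta1 level in the PER2 set and 0.0440% in the RORA set, and Myh3, the embryonic one, at 0.923% in the PER2 set and 0.0123% in the RORA set. Cytoplasmic γ-actin, Actg1, stood at 0.919% in the PER2 set and 0.0935% in the RORA set, Myh6 at 0.205% and 0.0111%, and Actb at 1.95% and 0.746%. The members themselves had similar shares, Myog 0.0120% in the PER2 set and 0.0128% in the RORA set, and Pax7 0.0141% in each. These levels are over all libraries of a set, not scaled by length, and come from separately normalized tables. How each set counted reads that match several similar genes is not known. Its part in these differences, and in the PER2 values of Myh3, Myh8 and Myh6, was not tested.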
